A study of Papio anubis with 6 samples.

Results

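The genes described here encode the proteins of the mitochondrial ribosome, as measured in sorted baboon proerythroblasts. They were chosen by name: MRPL or MRPS, a number and at most 1 further letter, with a mean level in both tables. Of 39023 genes listed in each table, 74 have such a name, and 73 of these had a level in both tables, among 16353 genes that did. By name, 46 of the 73 belong to the large subunit (MRPL) and 27 to the small subunit (MRPS).

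The mitochondrial ribosome translates the few messenger RNAs that mitochondrial DNA encodes, all of them for membrane subunits of the respiratory chain and ATP synthase. Its ribosomal RNAs come from mitochondrial DNA, whereas all of its proteins are encoded in the nucleus, made in the cytosol and imported. Some of these proteins have relatives in bacterial ribosomes and others are found in mitochondria alone. Proerythroblasts need mitochondria for heme synthesis and lose them later, as they mature into red cells.

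RNA was sequenced from Papio anubis bone marrow cells sorted as CD105+, CD34-, CD117+ and bRBC+ (baboon red blood cell antigen). The libraries came from 2 baboons given RN-1, an inhibitor of the histone demethylase LSD1, on 5 d of each week over more than 265 d at 0.25 mg/kg/d (long-term), 2 baboons given 0.25 mg/kg/d for 3 d (short-term), and 2 untreated control baboons. The control and the short-term samples were from the same animals, and the long-term samples were from others. The purpose of the study was to learn how RN-1 acts in these cells. The 2 deposited tables hold 1 mean level per gene in log2 CPM (the count of a gene scaled to a common library total), headed by the comparison of long-term samples with controls (long-term table) or of short-term samples with controls (short-term table).

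By these headings each level is taken to pool treated and control libraries, with the control libraries in both tables, but which libraries it covers and whether the tables were normalized together are not given in the sources read. No value of a single library was used, so that no SD between animals, no depth per library and no test can be given, and a change with treatment is not reported. In such bulk samples a level does not tell the share of cells that hold a transcript from the amount per cell. Genes are not replicates, and all differences below are descriptions of these pooled levels. The libraries hold 1 fragment near the poly(A) end of each transcript, and levels were therefore compared between genes without division by length. How far a gene's level also depended on the annotation of that end or on the assignment of its reads was not tested. The tables differed at their low end. The lowest level listed was -0.86 in the long-term table and -3.58 in the short-term table, and 17942 and 16355 genes had a level. The level of the sorted cells' own markers was high, with KLF1, an erythroid transcription factor, at 9.69 and 9.61 log2 CPM and the transferrin receptor gene TFRC at 10.33 and 10.31 in the long-term and the short-term table. All 12 erythroid markers had a level above 5.8 log2 CPM in both tables, and CD34 had none. Among markers of other cells, those of macrophages were highest. Of 6 macrophage markers, 5 had a level of -0.54 to 1.97 log2 CPM in the long-term table and 4 had a level of -2.61 to -1.16 in the short-term table, and the part of such cells in the levels below was not tested.

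Nearly all mitochondrial ribosomal protein genes lay above the middle of the proerythroblast transcriptome. Their median was 5.86 log2 CPM (74 genes) in the long-term table and 5.84 log2 CPM (73 genes) in the short-term table. The medians of all genes with a level were 2.81 and 2.85. At or above that median of all genes were 72 of 74 members (97.3%) in the long-term table and 70 of 73 (95.9%) in the short-term table. The upper quartile of all genes, at 5.25 and 5.37 log2 CPM, was reached by 51 and 48 members. On the linear scale the members together made up 0.470% of the summed levels of all genes in the long-term table and 0.485% in the short-term table. The proteins are present in the assembled particle in similar numbers, but the levels of their transcripts were spread widely. From the lowest to the highest of the 73 members with both levels they covered 33.8-fold in the long-term table and 64.96-fold in the short-term table, and from the lower to the upper quartile of all members with a level 2.81-fold and 3.14-fold. MRPL54, with a level near the lowest value of the long-term table alone, would widen the range there to 208-fold.

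**Figure D1:**
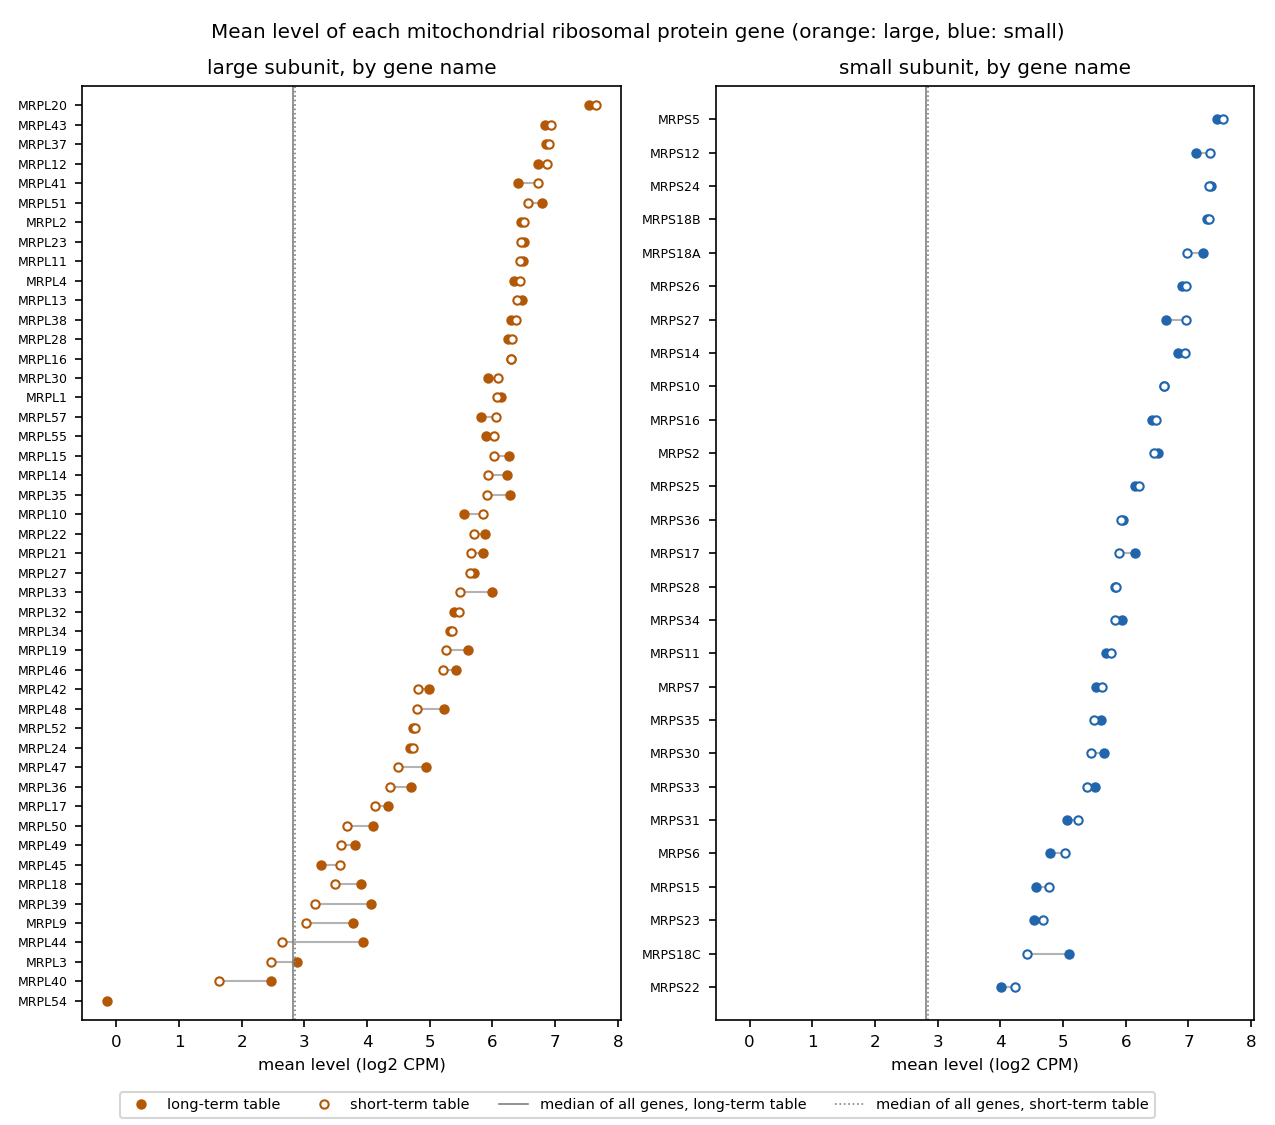
Mean level in log2 CPM (horizontal axis) of each gene, large subunit on the left and small subunit on the right, ordered by the short-term table. Filled points are the long-term table, open points the short-term table, and vertical lines the medians of all genes with a level (2.81 and 2.85). The lowest members belong to the large subunit, while every small subunit gene chosen by name lies above 4.0 log2 CPM in both tables.

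The large subunit joins amino acids and holds the exit tunnel of the new protein. Its genes had a median of 5.82 log2 CPM (47 genes) in the long-term table and 5.68 (46 genes) in the short-term table. Those of the small subunit, which binds the messenger RNA and reads its codons, had medians of 5.96 and 5.89 (27 genes). The large subunit median was thus lower by 0.14 on the log2 scale in the long-term table and by 0.22 in the short-term table. The upper quartiles differed in the same direction, at 6.30 (large) and 6.74 (small) in the long-term table and 6.36 and 6.95 in the short-term table. The size of the difference depended on the summary: large minus small was -0.48 and -0.52 for the log2 of the mean CPM, and -0.43 in the long-term table with ribosomal proteins of other names added. Among the genes chosen by name, the lower end was made up almost only of large subunit genes. Of the 10 lowest members, 9 in the long-term table and 10 in the short-term table were MRPL genes, which make up 63.5% and 63.0% of the members. Leaving these 10 out, a choice made after the data had been seen that takes away almost only large subunit genes and so raises their median by construction, gave -0.09 and 0.13 for large minus small. Of the large subunit genes, 8 of 47 in the long-term table and 10 of 46 in the short-term table lay below MRPS22, the lowest small subunit gene by name. At the upper end the order was the opposite, and small subunit genes by name held 7 of the 10 highest places in the long-term table and 8 of 10 in the short-term table. These included MRPS18A, in the 5th and the 6th place, which belongs to the large subunit by structure. By name, the range within the large subunit, without MRPL54, was 33.8-fold and 64.96-fold, against 10.8-fold and 10.01-fold within the small subunit. These counts and ranges leave out LOC101014936, a small subunit gene that RefSeq names MRPS21. At -0.16 (long-term) and -2.78 log2 CPM (short-term) it lay below every large subunit gene with a level. It would widen the small subunit range.

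In the large subunit MRPL20 was the highest of all members, at 7.55 log2 CPM (187 CPM) in the long-term table and 7.66 log2 CPM (202 CPM) in the short-term table. Its bacterial relative, L20, acts early in the assembly of the large subunit. MRPL43, a protein with a thioredoxin-like fold, followed at 6.84 and 6.93 log2 CPM, and MRPL37, a protein with no bacterial relative, at 6.85 and 6.90. MRPL51 was at 6.79 and 6.57 log2 CPM and MRPL41, which has also been linked to apoptosis in human cells, at 6.42 and 6.72. These genes lay between the 86.7th and the 94.4th percentile of all genes with a level, and their order differed between the tables apart from MRPL20 in the first place.

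The stalk that recruits translation factors had 3 members, at 5.54 to 6.72 log2 CPM in the long-term table and 5.84 to 6.86 in the short-term table. MRPL12, the stalk protein present in several copies and also reported to bind the mitochondrial RNA polymerase in human cells, was at 6.72 log2 CPM in the long-term table and 6.86 in the short-term table. MRPL11, at the base of the stalk, was at 6.49 and 6.45, and MRPL10, which anchors MRPL12, at 5.54 and 5.84. MRPL12 held the 12th place from the top among the members in both tables.

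Of the proteins around the peptidyl transferase centre, where the peptide bond is made, 4 of 5 were at 5.71 to 6.46 log2 CPM in the long-term table and 5.65 to 6.51 in the short-term table. These were MRPL2, MRPL4, MRPL16 and MRPL27, all with bacterial relatives. MRPL3 stood apart at 2.89 and 2.46 log2 CPM, or 7.41 and 5.52 CPM, near the median of all genes. Variants of MRPL3 cause a mitochondrial cardiomyopathy in humans, and its bacterial relative reaches close to the catalytic site. Reads that other rows may have drawn from its transcript were not looked for.

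Around the exit of the tunnel the levels were mixed. MRPL23 was at 6.504 log2 CPM in the long-term table and 6.45 in the short-term table, and MRPL22 at 5.89 and 5.70. MRPL47, the relative of bacterial L29, was at 4.95 and 4.49, MRPL24 at 4.68 and 4.73, and MRPL17 at 4.33 and 4.13. MRPL45, which ties the ribosome to the inner mitochondrial membrane, was the lowest of the 6, at 3.26 and 3.56 log2 CPM.

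The central protuberance, which in mammalian mitochondria holds a transfer RNA in place of the usual small ribosomal RNA, had the widest range of these regions. MRPL38 was at 6.30 log2 CPM in the long-term table and 6.38 in the short-term table, MRPL46 at 5.41 and 5.21, and MRPL48 at 5.22 and 4.80. MRPL18 lay lower, at 3.91 and 3.49. MRPL40 was the lowest member with a level in both tables, at 2.47 and 1.64 log2 CPM, or 5.53 and 3.11 CPM. Among the other low genes of the large subunit, MRPL44, whose fold is related to RNase III, was at 3.93 and 2.64, MRPL39, related to threonyl-tRNA synthetase, at 4.07 and 3.17, and MRPL9 at 3.78 and 3.02. MRPL54 had a level in the long-term table alone, -0.15 log2 CPM (0.900 CPM), close to the lowest value of that table, and it was the 1 listed name that had none in the short-term table.

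The remaining large subunit genes ranged widely. MRPL1, which forms the mobile stalk on the side where spent transfer RNA leaves, was at 6.14 log2 CPM in the long-term table and 6.07 in the short-term table. MRPL13, MRPL14, MRPL15, MRPL28, MRPL30, MRPL35, MRPL55 and MRPL57 were at 5.82 to 6.48 and 5.92 to 6.40 log2 CPM. MRPL19, MRPL21, MRPL32, MRPL33, MRPL34, MRPL36, MRPL42, MRPL49, MRPL50 and MRPL52 were at 3.81 to 5.998 and 3.58 to 5.65 log2 CPM, with MRPL49 lowest in both tables. Of these MRPL32, which in yeast and mouse has to be cut by the m-AAA protease of the inner membrane before it can be assembled, was at 5.39 and 5.46.

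In the small subunit MRPS5, the relative of a bacterial protein at the entry of the messenger RNA channel, was the highest gene, at 7.45 log2 CPM (175 CPM) in the long-term table and 7.55 log2 CPM (188 CPM) in the short-term table. MRPS24, the relative of bacterial S3 at the same entry, was at 7.37 and 7.33, and MRPS12, which lies at the decoding centre, at 7.12 and 7.35. The 4 head proteins counted together, MRPS24, MRPS14, MRPS10 and MRPS7, had a median of 6.72 log2 CPM in the long-term table and 6.78 in the short-term table. MRPS14 was at 6.83 and 6.95, MRPS10 at 6.61 and 6.62, and MRPS7, which starts the assembly of the head in bacteria, at 5.52 and 5.63. The 4 platform proteins counted together were lower, with medians of 4.94 and 4.91. Of these MRPS11 was at 5.69 and 5.77 log2 CPM, MRPS6 at 4.80 and 5.04, MRPS15 at 4.57 and 4.78, and MRPS18C at 5.09 and 4.42. None of the 4 head proteins counted lay below 5.52 and none of the 4 platform proteins counted above 5.77 in either table. The ranges of these genes overlapped through MRPS7 and MRPS11 alone. Whether other proteins of the head and the platform would change this was not tested.

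Proteins of the small subunit that are found in mitochondria alone included MRPS26 at 6.89 log2 CPM in the long-term table and 6.96 in the short-term table. MRPS27, an RNA-binding protein with pentatricopeptide repeats, was at 6.65 and 6.96. MRPS25 was at 6.15 and 6.22, and MRPS34, which is mutated in a form of Leigh syndrome in humans, at 5.94 and 5.82. MRPS35 and MRPS33 were at 5.60 and 5.50 in the long-term table and at 5.49 and 5.38 in the short-term table. The lowest of them were MRPS31 at 5.06 and 5.24, MRPS23 at 4.53 and 4.68, and MRPS22, another human disease gene, at 4.01 and 4.23 log2 CPM. The others, MRPS2, MRPS16, MRPS17 and MRPS28, have bacterial relatives and were at 5.83 to 6.52 and 5.84 to 6.48 log2 CPM.

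A gene name does not always give the place of its protein. MRPS18A, MRPS18B and MRPS18C are paralogs related to bacterial S18, of which MRPS18C takes the place of S18 and MRPS18B lies elsewhere in the small subunit, whereas MRPS18A belongs to the large subunit. MRPS18B was at 7.29 log2 CPM (156 CPM) in the long-term table and 7.32 (160 CPM) in the short-term table. MRPS18A was at 7.24 (151 CPM) and 6.98 (126 CPM), and MRPS18C at 5.09 (34.0 CPM) and 4.42 (21.4 CPM). The paralogs of the small subunit thus differed by 2.20 and 2.90 on the log2 scale, more than the interquartile range of all members, 1.49 and 1.65. MRPS30, likewise a large subunit protein in known structures, was at 5.64 and 5.44 log2 CPM. MRPS36, at 5.96 and 5.93, is now counted as a subunit of the 2-oxoglutarate dehydrogenase complex and not of the ribosome. With these genes placed by structure, the large subunit median (49 and 48 genes) was 5.82 and 5.68 log2 CPM, the small subunit median (24 genes) was 6.04 and 5.87, and large minus small was -0.22 and -0.19.

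The members found in mitochondria alone had lower median levels than those with bacterial relatives in both subunits. MRPS18A, MRPS18B and MRPS18C were all counted with bacterial relatives. Other placements of MRPS18B, which does not take the place of S18, were not tried. In the large subunit the medians were 5.11 log2 CPM (18 genes, mitochondria alone) and 5.93 (31 genes, bacterial relatives) in the long-term table, a difference of -0.82, and 4.82 (17 genes) and 5.92 (31 genes) in the short-term table, a difference of -1.10. In the small subunit they were 5.60 (9 genes, mitochondria alone) and 6.42 (15 genes, bacterial relatives) in the long-term table, a difference of -0.82, and 5.49 (9 genes) and 6.46 (15 genes) in the short-term table, a difference of -0.97. The classes overlapped, and MRPL37, MRPL43 and MRPS26, all found in mitochondria alone, lay above the medians of both classes. When proteins of the ribosome listed under other names were added, the difference in the small subunit shrank to -0.42 in the long-term and -0.36 in the short-term table, and that in the large subunit was -0.82 and -1.10 as before.

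**Figure D2:**
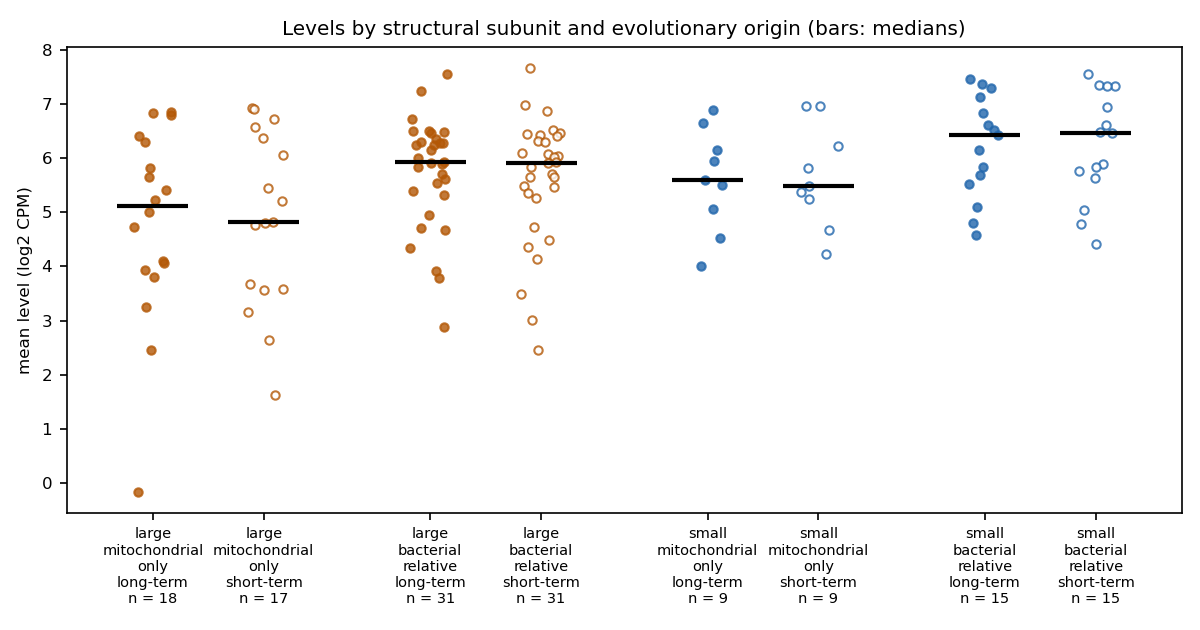
Mean level in log2 CPM (vertical axis) of the genes of each subunit, placed by structure, split into proteins found in mitochondria alone and proteins with bacterial relatives. Points are genes, filled for the long-term and open for the short-term table, and bars are medians, which in the large subunit are 5.11 and 4.82 for the first class and 5.93 and 5.92 for the second.

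Most proteins of the ribosome with other names were at levels like those of the members. DAP3, a GTP-binding protein of the small subunit also known from apoptosis, was the highest, at 7.84 log2 CPM in the long-term table and 7.78 in the short-term table, above every member. PTCD3, a pentatricopeptide repeat protein, was at 6.93 and 7.001, AURKAIP1 at 6.16 and 6.31, and CHCHD1 at 5.37 and 4.82. In the large subunit GADD45GIP1 was at 5.64 and 5.49 and the peptidyl-tRNA hydrolase MRPL58, listed as ICT1, at 4.11 and 3.79. MRPS9 was listed as LOC101017192, at 6.36 and 6.18. LOC101014936, which the RefSeq table of Panubis1.0 names MRPS21, was near the floor at -0.16 and -2.78, and whether its reads are counted under another name was not tested. MRPL53 was not matched to a name and is not analysed here.

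The levels of the members differed little between the tables. Long-term minus short-term table had a median of 0.03 on the log2 scale over the 73 members, with 38 above 0 and 35 below, against a median of 0.44 over all 16353 genes with both levels and of 0.08 over the 9019 genes at 2 log2 CPM or more in both. The direction of the members' median therefore depended on the centre taken, being -0.41 relative to all genes and -0.047 relative to the genes at 2 or more. The difference depended strongly on the level itself, since the median over all genes was 2.34 where the mean of both tables was under 2 log2 CPM, 0.32 between 2 and 4, 0.10 between 4 and 6, and 0.03 between 6 and 8. Members in these ranges had medians of 0.43 (9 genes), 0.05 (32 genes) and -0.05 (32 genes) between 2 and 4, 4 and 6, and 6 and 8. By subunit the medians were 0.07 for large and -0.05 for small subunit genes.

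Differences over 0.5 were found for 6 of 73 members (8.22%), against 48.5% of all genes with both levels and 11.4% of those at 2 log2 CPM or more. None of the members lay below -0.5, where 0.654% of all genes and 0.82% of those at 2 or more did. MRPL44 differed most, by 1.29, more than 99.1% of the genes at 2 log2 CPM or more in both tables. Many of those genes lay at higher levels, where differences were smaller. Among all genes with a mean of 2 to 4 the upper quartile was 0.72 and the highest difference 4.72. The place of MRPL44 among these was not computed. MRPL44 was followed by MRPL39 (0.90), MRPL40 (0.83), MRPL9 (0.76), MRPS18C (0.67) and MRPL33 (0.52). Apart from MRPS18C and MRPL33, these genes were in the level range where 37.1% of all genes differed by more than 0.5, and whether a single library carried them cannot be told from pooled levels. MRPL33, at 5.998 log2 CPM in the long-term table and 5.48 in the short-term table, lay in the range of 4 to 6, where 8.77% of all genes did. Differences in the other direction were smaller. MRPS27 and MRPL41 were at -0.31, MRPL45 and MRPL10 at -0.30, and MRPS6 at -0.24.

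**Figure D3:**
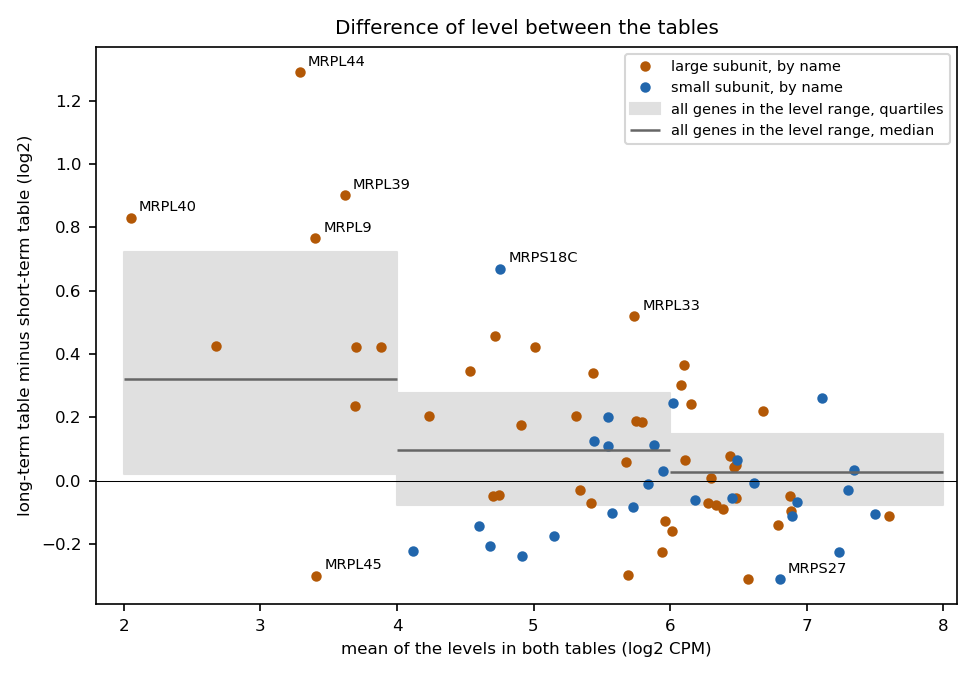
Long-term minus short-term table on the log2 scale (vertical axis) against the mean of both levels in log2 CPM (horizontal axis) for the 73 members. Grey bands and lines are the quartiles and medians of all genes in 3 level ranges, with medians of 0.32, 0.10 and 0.03, and most members lie near these bands, with MRPL44 at 1.29 above them.

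Beside the ribosome stand the genes that build and serve it. Mitochondrial translation factors had a median of 5.77 log2 CPM in the long-term table and 5.81 in the short-term table (12 genes). Among them LRPPRC, which stabilizes mitochondrial messenger RNA, was the highest at 8.74 and 8.77, and the initiation factor MTIF3 was the lowest at 3.52 and 3.54. The elongation factor TUFM was at 8.03 and 8.13, above every ribosomal member. Assembly factors were lower, with medians of 4.37 (26 genes) and 4.62 (24 genes). They ranged up to the helicase DHX30 at 7.18 in the long-term table and RBFA at 7.35 in the short-term table, and down to MRM3, listed as RNMTL1, at -0.69 and the methyltransferase NSUN3 at -2.96. Mitochondrial aminoacyl-tRNA synthetases and the glutamyl-tRNA amidotransferase had medians of 4.34 and 4.26 (21 genes). The highest, KARS (8.07 and 7.98), also serves the cytosol, and the lowest were PARS2 at 1.89 in the long-term table and MARS2 at 0.81 in the short-term table. Genes of mitochondrial RNA synthesis and the nucleoid had medians of 5.07 (15 genes) and 4.78 (14 genes), with the single-strand DNA-binding protein SSBP1 highest at 7.48 and 7.498, and TEFM at 0.22 in the long-term and POLG2 at 2.79 in the short-term table lowest.

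The members were lower than the other large complexes they are related to. Respiratory chain and ATP synthase subunits had medians of 6.92 and 6.94 log2 CPM (56 genes) and cytosolic ribosomal proteins medians of 8.65 and 8.54 (74 genes). On the linear scale the members summed to 0.470% and 0.485% of all levels, against 0.981% and 1.05% for the respiratory chain and 5.59% and 5.71% for the cytosolic ribosome. From the lower to the upper quartile the members covered 2.81-fold and 3.14-fold, beside 2.93-fold and 2.92-fold for the respiratory chain, and 19.0-fold and 21.2-fold for the cytosolic ribosome. Cytosolic ribosomal protein genes have many near-identical copies in the genome, and how their reads were divided was not tested.

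**Figure D4:**
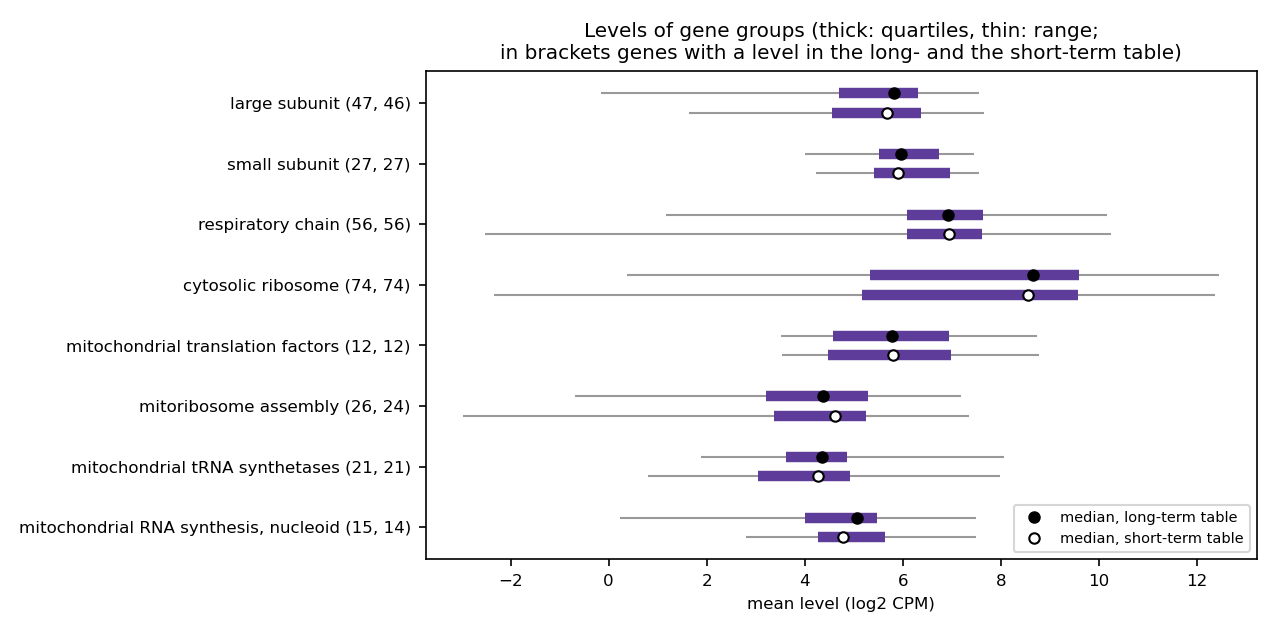
Levels in log2 CPM (horizontal axis) of the members and of related gene groups. Circles are medians, filled for the long-term and open for the short-term table, thick lines the quartiles and thin lines the range. The ribosomal members, at medians of 5.82 and 5.96 (large and small subunit, long-term table), lie between the assembly factors at 4.37 and the respiratory chain at 6.92.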

How the data were processed

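The authors made 6 libraries with a QuantSeq 3' tag protocol, used BWA MEM for alignment (genome build Panu_2.0), featureCounts for counting and edgeR for their comparisons, with versions not given in the sources read. From each of the 2 deposited tables the only column used was the mean level in log2 CPM, which the authors gave as 1 value per gene and which is taken to cover the libraries of the comparison in its heading. The other columns hold the authors' fold changes, p-values, q-values, direction marks and pathways. They were not used, so no treatment groups were compared. Columns with values of single samples numbered 0.

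Medians, quartiles and ranges were computed with pandas 2.3.3 and numpy 2.4.6 (Python 3.11.15), without a pseudocount. The name rule was checked on sample names. The difference of medians was checked on resampled levels shifted by a known amount, where the answer is fixed by construction. The other steps were not tested in this way. A repeated name was dropped when tables were joined. RefSeq's Panubis1.0 table held 71 of the 74 names and served for names and neighbours only. Genes to be named were the 6 highest and 6 lowest of each subunit, the 5 with the largest difference between the tables in each direction at 2 log2 CPM or more in both, the MRPS18 paralogs, MRPS30, MRPS36, names without a level, ribosomal proteins with other names and the ends of each list. The remaining members were added by role. Members and lists were chosen with earlier results of these data known, and the role groups, the split by origin, the respiratory chain and the cytosolic ribosome were compared after the levels had been seen. Alternatives were subunits by structure, minimums of 0 and 2 log2 CPM, linear means, added names, genes with both levels and other centres.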

Additional observations from a re-analysis of the deposited data

How the results depend on the processing

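A median counted as moved when it shifted by more than 0.1 on the log2 scale. Of the alternative values, 19 stayed within that limit (or within 1.5-fold for counts), 7 moved and 3 changed sign. For large minus small subunit, the log2 of the mean CPM gave -0.48 (long-term table) and -0.52 (short-term table), added names gave -0.43 (long-term), and leaving out the 10 lowest members, chosen after seeing the data and nearly all of the large subunit, gave 0.13 (short-term). For genes found in mitochondria alone minus those with bacterial relatives, alternatives also chosen after seeing the data, a minimum of 2 log2 CPM gave -0.70 (long-term) and -0.90 (short-term) in the large subunit, and added names gave -0.42 and -0.36 in the small subunit. The difference between the tables became -0.41 and -0.047 when centred on all genes or on genes at 2 log2 CPM or more. Apart from what each alternative changes by construction (the genes, the centre or the linear mean), the cause was not tested. Division by coding length was not run, since no lengths were at hand. No paired analysis was possible because the levels are pooled over libraries, and no library could be left out for the same reason. The nearness of MRPL54 to the lowest value of the long-term table, -0.86 log2 CPM, limits what can be said of it.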

Other observations

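In the RefSeq annotation of Panubis1.0, 1 pair of members are direct neighbours among protein-coding genes, MRPS11 of the small and MRPL46 of the large subunit. MRPS11 was at 5.69 log2 CPM in the long-term table and 5.77 in the short-term table, and MRPL46 at 5.41 and 5.21.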
